A study of Mus musculus with 22 samples.

Results

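NIH3T3 mouse fibroblasts in which Denr was knocked down with either of 2 different short hairpin RNAs were compared with each other, Denr shRNA2 against Denr shRNA1. The 6 knockdown lysates, 3 for each hairpin, were chosen by their labels and gave 12 of the 22 libraries of the series, 1 of ribosome footprints (RPF-seq) and 1 of total RNA (RNA-seq) per lysate. The remaining 10 libraries came from 5 control lysates, 3 with scramble shRNA and 2 with Gfp shRNA, and their levels are given only for orientation. All cells carried a lentiviral pLKO.1puro hairpin vector and were selected with puromycin, and they received 100 µg/ml cycloheximide for 2 min before lysis. By the study's methods a replicate was 1 dish of cells, and no label says that the replicates of a hairpin were separate transductions, so the p-values measure the spread between these lysates, and since both libraries of a lysate share their cells, footprint differences are not a second independent sample of the RNA differences.

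DENR is a translation factor that acts with its partner MCTS1 on small ribosomal subunits after termination, and the pair is known for helping ribosomes to resume scanning after a short upstream open reading frame. EIF2D combines the domains of both proteins in a single chain. A footprint is the piece of mRNA that a ribosome protects from nuclease, so footprints on a coding sequence (CDS) reflect both how much mRNA is present and how densely it is translated, and translation efficiency (TE) is the ratio of the former to the RNA level. In bulk lysates of this kind, fewer cells with a transcript and less transcript per cell cannot be told apart.

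The hairpins are directed at different places in the CDS of Denr, which lies on chromosome 5 from 123907175 to 123928835 (GRCm38, plus strand). The shRNA1 target is in exon 6 of 8, at chr5:123924766-123924786, which is base 331 to 351 of the 594-base CDS. The shRNA2 target is in exon 2, at chr5:123908167-123908187, base 59 to 79 of the CDS. They are shown because the sequence is the only designed difference between the groups, and capitals mark the 7 bases that would pair with bases 2 to 8 of a guide strand that is exactly complementary to the target.
Denr shRNA1: gtaccacagaaggTCACGATa
Denr shRNA2: gtgccaagttagaTGCGGATt

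Matches to these 7 bases in the 3′ UTR of other measured genes were rare. On the transcript strand, TCACGAT occurred in the 3′ UTR of 161 of 10301 genes (1.56%) and TGCGGAT in that of 125 (1.21%). Of the genes with a 3′ UTR whose RNA was called lower with shRNA1, 2 of 55 (3.64%) held the shRNA1 match, the genes Asxl3 and Nacc1, and of those called lower with shRNA2, 0 of 35 held the shRNA2 match. In footprints the matches were present in 16 of 651 genes lower with shRNA1 (2.46%) and in 9 of 515 genes lower with shRNA2 (1.75%). Among genes higher in footprints with the same hairpin, 10 of 515 (1.94%) held the shRNA1 match and 9 of 651 (1.38%) the shRNA2 match. Genes with an shRNA1 match had a median RNA difference of 0.07, against −0.02 for those without. Genes with an shRNA2 match had 0.01, against −0.02. In footprints these medians were 0.02 against −0.01 for shRNA1 and −0.02 against −0.01 for shRNA2. Genes with a match had longer 3′ UTRs, with medians of 2678 against 979 bases for shRNA1 and 2424 against 983.5 for shRNA2. An effect of the matches was not tested. All differences given here are shRNA2 minus shRNA1 on log2(RPKM + 0.1), so that a positive value is a level higher with shRNA2.

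The knockdown libraries held 10927303 to 15090773 reads in RPF-seq and 11970579 to 20109700 in RNA-seq on the CDS and 5′ UTR of 10516 genes. One library stood apart: the squared correlation across genes of the RNA-seq library of shRNA1 replicate 1 with the other shRNA1 libraries was 0.956 and 0.970, against 0.989 to 0.993 for the other replicate pairs in RNA-seq and 0.990 to 0.992 in RPF-seq. Many counts of calls are therefore also given without this lysate. All 9 fibroblast markers looked for, among them Vim, Col1a1 and Thy1, were measured, the lowest being Pdgfrb with a mean of 38.8 RPKM in RNA-seq. Of markers of other cell types, 8 of 22 neural, 4 of 21 muscle, 3 of 14 adipocyte, 3 of 15 epithelial and 4 of 16 endothelial or blood genes were in the table.

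The level of Denr itself checks the labels of knockdown against control, but not which hairpin a lysate carried. Its RNA was at 44.0, 43.2 and 34.4 RPKM in the shRNA1 lysates and at 15.5, 20.8 and 17.4 RPKM in the shRNA2 lysates, against 164.7 to 190.1 RPKM in the controls. The 2 hairpins thus left different amounts of transcript, with no overlap between their lysates, and both were far below every control. Denr RNA was 2.26-fold lower with shRNA2 than with shRNA1 (difference −1.18, standard error 0.14, limma adjusted p = 0.0178). In footprints the levels were 43.2, 30.9 and 27.1 RPKM with shRNA1 and 9.25, 13.2 and 12.8 RPKM with shRNA2, which was 2.83-fold lower (difference −1.5, standard error 0.18, limma adjusted p = 0.00143). The RNA difference of Denr no longer passed an FDR of 0.1 without shRNA1 replicate 2 (limma adjusted p = 0.138), shRNA2 replicate 1 (0.113) or shRNA2 replicate 3 (0.159), and it passed with 0.000533 without shRNA1 replicate 1. Neither partner passed the test: Mcts1 had a difference of 0.02 in RNA and 0.22 in footprints, and Eif2d of 0.13 and 0.10, and of the 9 genes listed as partners or recycling factors Denr was the only one called in either assay. With the replicate number as a block the footprint difference of Mcts1 did pass (limma adjusted p = 0.0467).

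RNA levels differed between the hairpins in a small set of genes. At an FDR of 0.1, 93 of 10516 genes (0.884%) were called in RNA-seq, 57 of them higher (0.542%) and 36 lower (0.342%) with shRNA2. In RPF-seq 1185 genes (11.3%) were called, 661 higher (6.29%) and 524 lower (4.98%). Standard errors were smaller in the footprints, with a median of 0.0878 over all genes against 0.128 in RNA-seq, while the spread of the differences across genes was alike, with an SD of 0.228 and 0.225. The RNA count depended strongly on single lysates: it was 698 without shRNA1 replicate 1 (3.91% of all genes higher and 2.73% lower) and 85 without shRNA1 replicate 3, but 12 without shRNA1 replicate 2 and 13, 10 and 3 without shRNA2 replicates 1, 2 and 3. Each of these fits left the direction of all 93 genes as it was, yet only Ccl8, Dpt and Slurp1 were called in RNA in all 6 of them. In footprints 475 of the 1185 calls held in all 6 fits, and the count was 838 without shRNA1 replicate 1 (4.55% higher and 3.41% lower), 767 without shRNA1 replicate 2, 650 without shRNA2 replicate 2 and 743 without shRNA2 replicate 3. Of the footprint calls named in the following, those of Asxl3, Id1, Id2, Per3, Slc2a5, Spry1 and Tnfaip3 were lost in at least 1 of these fits. In the footprints, lysates that carry the same number also shared deviations, and with the replicate number as a block 2715 genes were called there, 1323 higher (12.6%) and 1392 lower (13.2%), and 289 in RNA (1.52% higher and 1.23% lower).

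Of the 93 RNA differences, 85 (91.4%) were mirrored in footprints, meaning that the gene was also called in RPF-seq in the same direction, against 11.3% of all genes that were called in footprints in either direction. Among the 57 genes higher in RNA with shRNA2, 55 were mirrored, and among the 36 lower, 30. None was called in the opposite direction. The footprint difference was on the median 0.975 of the RNA difference (quartiles 0.788 and 1.11). Across the 93 genes the differences in both assays had a Pearson correlation of 0.959, against 0.635 across all genes, which are not independent replicates. The 93 genes were picked by their RNA differences, each at least 0.476 in size. Such a choice by itself raises a correlation, so these values cannot be compared directly. Without shRNA1 replicate 1, where far more RNA differences were called, 369 of 698 (52.9%) were mirrored, against 7.97% of all genes called in footprints in that fit. There 0 were called in the opposite direction, and the median ratio was 0.859. In each of the other 5 fits without a lysate, at least 77 of 85, 12 of 13 or all of the genes called in RNA were mirrored. With the replicate block 241 of 289 (83.4%) were mirrored, where 12.6% of all genes were called higher and 13.2% lower in footprints.

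**Figure D1:**
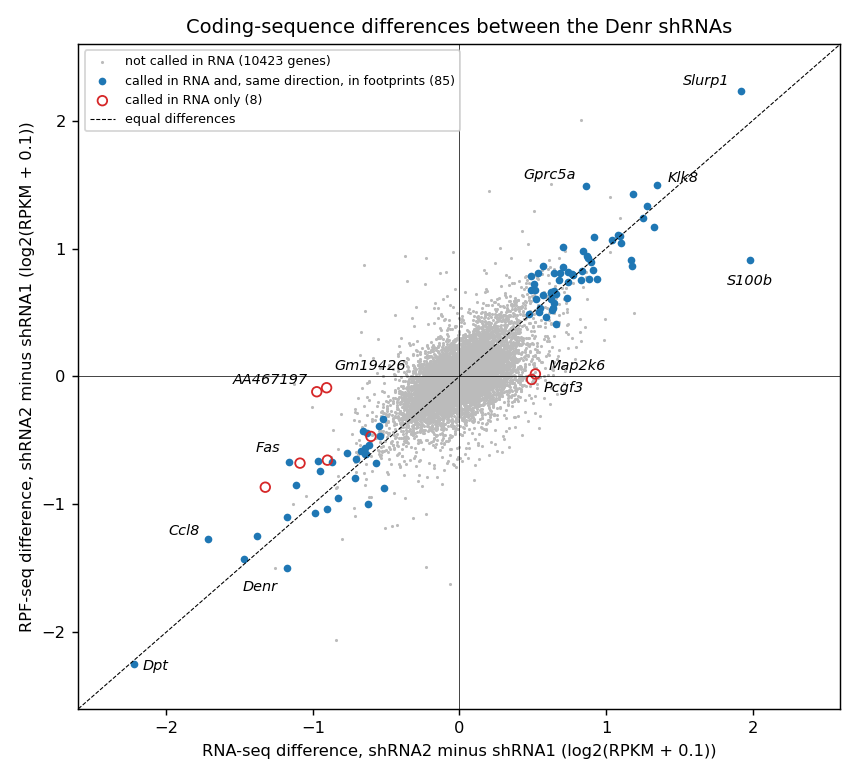
Difference between the Denr shRNAs in RNA-seq (x axis) and RPF-seq (y axis), both shRNA2 minus shRNA1 on log2(RPKM + 0.1), with a point per gene. Many of the 85 mirrored genes (blue) lie near the dashed line of equal differences. Others lie off it, among them S100b (1.98 in RNA, 0.91 in footprints) and Gprc5a (0.87 and 1.49). Of the 8 genes called in RNA only (red), Pcgf3, Map2k6, AA467197 and Gm19426 lie near 0 on the footprint axis.

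Several of the genes that fell most with shRNA2 encode secreted or cell-surface proteins. Dpt, which encodes the matrix protein dermatopontin (chromosome 1, 164796644 to 164824266), had 17.6, 24.1 and 18.2 RPKM in RNA-seq with shRNA1 and 4.45, 5.69 and 2.85 RPKM with shRNA2. Its footprints were at 34.2, 42.7 and 29.3 RPKM with shRNA1 and at 7.19, 8.77 and 6.08 RPKM with shRNA2. In both assays every shRNA1 lysate was above every shRNA2 lysate, which the rule that chose the largest falls required. The difference was 4.65-fold in RNA (difference −2.22, standard error 0.24, limma adjusted p = 0.0118) and 4.76-fold in footprints (difference −2.25, standard error 0.16, limma adjusted p = 0.000148). The control lysates were themselves split for this gene, at 13.0 and 14.8 RPKM of RNA with Gfp shRNA and 4.30, 5.41 and 5.13 with scramble shRNA, so that the scramble level was that of shRNA2 and the Gfp level lay closer to that of shRNA1.

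Signals of inflammation showed the same order. The chemokine Ccl8 (chromosome 11, 82115185 to 82116799) was at 36.2, 27.7 and 26.4 RPKM in RNA-seq with shRNA1 and at 7.65, 9.43 and 10.2 RPKM with shRNA2, a 3.28-fold difference (limma adjusted p = 0.00930). Its footprints were 2.41-fold lower, from 81.4, 80.9 and 62.3 RPKM to 29.6, 33.7 and 29.3 RPKM (limma adjusted p = 0.000401). Il33, an alarmin cytokine released from damaged cells, was 2.27-fold lower in RNA (limma adjusted p = 0.0505) and 2.14-fold lower in footprints (limma adjusted p = 0.000521). For Il33 too the controls were split, with footprints at 7.83 and 8.72 RPKM with Gfp shRNA and 0.889 to 1.17 RPKM with scramble shRNA, against 12 to 14.5 RPKM with shRNA1 and 5.52 to 6.52 RPKM with shRNA2. Neither hairpin was therefore at the scramble level of Il33. Of 17 measured genes in the list of chemokines and cytokines, 0 rose and 3 fell in RNA (Ccl8, Il33 and Ccl9, against 0.342% of all genes lower), and 1 rose and 6 fell in footprints (5.88% and 35.3%, against 6.29% and 4.98% of all genes). Without shRNA1 replicate 1 the RNA count was 1 rise and 5 falls (against 3.91% and 2.73% of all genes). With the block 1 rose and 10 fell in footprints (5.88% and 58.8%, against 12.6% and 13.2% of all genes). The chemokine and cytokine list had medians of −0.40 in RNA and −0.25 in footprints against −0.02 and −0.01 over all genes. Ccl9 footprints were 1.58-fold lower with shRNA2, and those of Tnfaip3, an inhibitor of NF-κB signalling, 2.04-fold lower (limma adjusted p = 0.0968).

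Among the other large falls, the RNA of the cadherin Cdh26 was at 28.4, 22.7 and 22.0 RPKM with shRNA1 and at 10.5, 9.45 and 6.61 RPKM with shRNA2. It was 2.76-fold lower in RNA and 2.7-fold lower in footprints. Fas, the death receptor, had RNA at 8.78, 9 and 8.30 RPKM with shRNA1 and at 4.65, 3.87 and 3.10 RPKM with shRNA2 (2.24-fold, limma adjusted p = 0.0281). Fas footprints went from 9.30, 10.2 and 10.4 RPKM to 6.78, 6.39 and 5.54 RPKM (1.59-fold, limma adjusted p = 0.00532), so that its footprint difference was smaller than its RNA difference, with a TE difference of 0.49 that did not pass (limma adjusted p = 0.984). The controls of Fas were at 6.77 to 8.28 RPKM in RNA, close to shRNA1 and above shRNA2. Lyplal1, a relative of lysophospholipases, was 2.16-fold lower in RNA and 1.80-fold lower in footprints, and Spry1, an inhibitor of receptor tyrosine kinase signalling, 1.98-fold and 2.10-fold lower. Ostn, which encodes the secreted peptide osteocrin, was 2.6-fold lower in RNA on only 6 to 18 reads per library and was not called in RNA by voom on the recovered reads (limma adjusted p = 0.109).

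The genes that rose most were also mirrored. Slurp1, which encodes a small secreted protein of the Ly6 family (chromosome 15, 74724318 to 74728034), had RNA at 16.9, 20.9 and 24.7 RPKM with shRNA1 and at 87.0, 69.9 and 78.7 RPKM with shRNA2. Its footprints were at 29.3, 37.7 and 27.0 RPKM with shRNA1 and at 141.0, 145.2 and 151.9 RPKM with shRNA2. The groups were far apart in both assays, by 3.78-fold in RNA (difference 1.92, standard error 0.15, limma adjusted p = 0.00486) and 4.69-fold in footprints (difference 2.23, standard error 0.11, limma adjusted p = 3.03e-05). In the controls Slurp1 RNA was at 55.7 to 153.6 RPKM, so the shRNA2 lysates lay within the range of the controls and the shRNA1 lysates below it.

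Klk8, a secreted serine protease, was at 16.6, 12.2 and 12.9 RPKM in RNA-seq with shRNA1 and at 39.4, 31.1 and 35.7 RPKM with shRNA2, and rose by 2.55-fold in RNA and 2.83-fold in footprints (limma adjusted p = 0.0118 and 0.000127). Crlf2, a subunit of the receptor for thymic stromal lymphopoietin, rose 2.38-fold in RNA and 2.36-fold in footprints, and Spcs3, a subunit of the signal peptidase complex, 2.14-fold and 2.15-fold. Spcs3 was the most abundant of these genes, with RNA at 72.1 to 94.3 RPKM with shRNA1, 162.9 to 193.4 RPKM with shRNA2 and 114.4 to 164.8 RPKM in the controls. The transcription factor gene Sox6 rose 2.15-fold in RNA and 2.06-fold in footprints. Arrdc4, Bpifc, Asxl3 and Tmem38b were among the other large RNA rises, with RNA differences of 1.33, 1.28, 1.17 and 1.17 and footprint differences of 1.17, 1.33, 0.86 and 0.91.

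**Figure D2:**
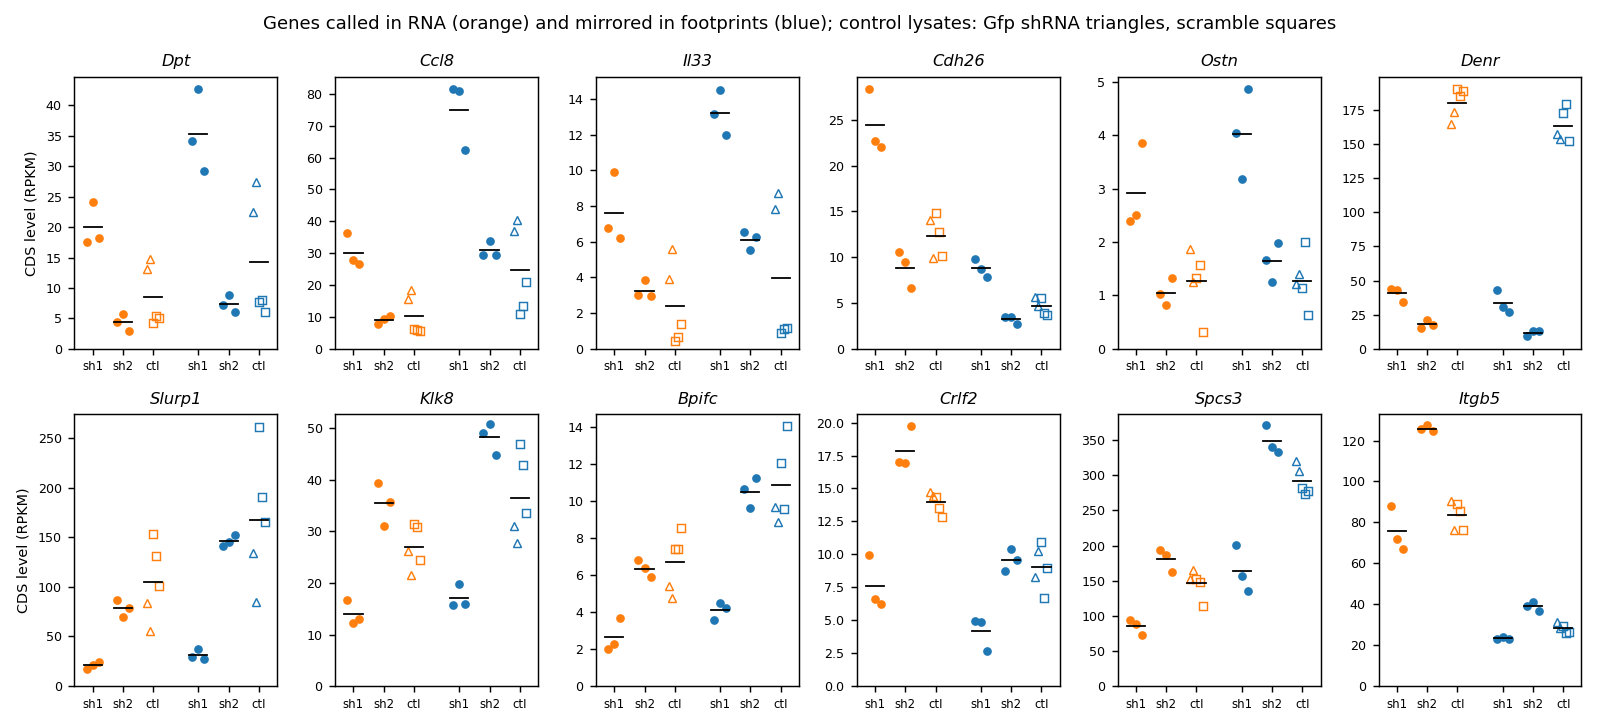
CDS levels (RPKM, linear axis from 0) of 12 genes called in both assays, by group: shRNA1 (sh1), shRNA2 (sh2) and controls (ctl), RNA-seq in orange and RPF-seq in blue, with a symbol per lysate and a bar at the mean. For each gene the sh1 and sh2 symbols of an assay do not overlap, as was so for 19.1% of all genes in RNA-seq and 27.5% in RPF-seq. Separated lysates were part of the rule that chose the largest rises and falls, so this was partly fixed in advance. For Dpt, Ccl8 and Il33 the Gfp shRNA controls (triangles) lie above the scramble controls (squares).

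S100b, a calcium-binding protein of glial cells and some other cell types, was the largest RNA rise and was only partly mirrored. Its RNA was at 3.12, 1.77 and 0.961 RPKM with shRNA1 and at 9.30, 5.93 and 6.85 RPKM with shRNA2, a 3.95-fold rise (limma adjusted p = 0.0625), on 3 to 45 reads per library. Its footprints were at 4.94, 3.70 and 4.95 RPKM and at 7.60, 8.87 and 9.20 RPKM, a 1.88-fold rise (limma adjusted p = 0.00442). The TE difference of −1.07 did not pass (limma adjusted p = 0.984).

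The 8 RNA differences that were not called in footprints fell into those that were smaller but in the same direction and those near 0. Pcgf3, which encodes a Polycomb ring-finger protein, had RNA at 49.6, 54.0 and 57.6 RPKM with shRNA1 and at 73.5, 77.6 and 75.5 RPKM with shRNA2 (1.41-fold higher, limma adjusted p = 0.0856). Its footprints were at 8.08, 11.6 and 8.73 RPKM with shRNA1 and at 7.77, 10.1 and 9.83 RPKM with shRNA2, which overlap (difference −0.02, standard error 0.15), and it was the only one of the 93 genes with differences of opposite sign. Map2k6, a kinase upstream of p38, rose 1.43-fold in RNA (limma adjusted p = 0.0808), from 21.9 to 23.8 RPKM in the shRNA1 lysates to 30.5 to 34.3 RPKM in the shRNA2 lysates. Its footprints were at 12.4 to 14 RPKM and at 12.3 to 14.9 RPKM (difference 0.02, standard error 0.09). AA467197 and Gm19426 were 1.96-fold and 1.87-fold lower in RNA and had footprint differences of −0.12 and −0.09 with standard errors of 0.14 and 0.22. The remaining genes, Dusp23, Cp, Ankrd1 and Tagap1, of which Cp and Tagap1 were chosen after their values were seen, were lower in both assays with footprint differences of −0.87, −0.68, −0.66 and −0.47. Cp missed the threshold in footprints narrowly (limma adjusted p = 0.104). With the replicate block the footprints of Dusp23, Cp and Ankrd1 passed (limma adjusted p = 0.0546, 0.0411 and 0.0229), and those of Tagap1 did not (0.113). The TE of none of the 8 passed, and so a difference between their RNA and footprint changes was not shown.

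**Figure D3:**
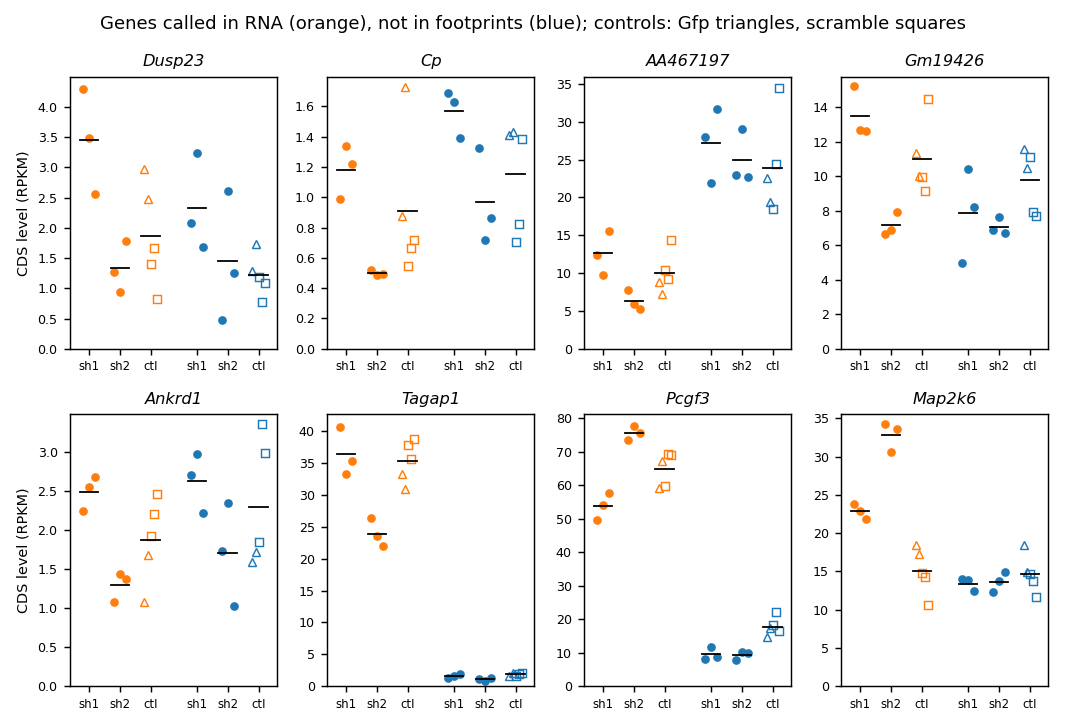
CDS levels (RPKM, linear axis from 0) of the 8 genes called in RNA-seq (orange) and not in RPF-seq (blue), with the same groups and symbols as for the mirrored genes. The sh1 and sh2 symbols are apart in RNA for each gene, as they were for all 93 genes called in RNA and for 19.1% of all genes. In footprints they overlap for 7 of the 8, Cp being the exception, and 27.5% of all genes were apart there.

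No TE difference between the hairpins was called. In limma's test on TE, 0 of 10516 genes (0%) passed an FDR of 0.1, 337 had an unadjusted p under 0.05 and the smallest adjusted p was 0.311. Among the 93 genes called in RNA, 12 had an unadjusted p under 0.05 for TE. The smallest p-values, which did not pass, were those of Id4, with a TE difference of 1.02, and of the fructose transporter gene Slc2a5, with 1.52. For Slc2a5 the RNA was lower with shRNA2 (0.62, 0.541 and 0.824 RPKM against 0.38, 0.421 and 0.343 RPKM) and the footprints were higher (0.287, 0.242 and 0.202 RPKM against 0.577, 0.587 and 0.422 RPKM, limma adjusted p = 0.0763), on 4 to 12 footprint reads per library. Of the genes lower in TE, Gm21680 had the smallest p, with a TE difference of −1.22 that did not pass, with footprints at 4.66 to 5.68 RPKM with shRNA1 and 0.734 to 1.67 RPKM with shRNA2.

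Most footprint differences had no RNA call beside them. Of the 1185 genes called in RPF-seq, 7.17% were also called in RNA in the same direction and 1100 were not called in RNA. Among these 1100, the RNA difference had the sign of the footprint difference in 1030 (93.6%). It had an unadjusted p under 0.05 (limma) in 453 of them, against 1151 of all 10516 genes. Its median size was 0.671 of the footprint difference (quartiles 0.414 and 0.944). The largest footprint rises beside Slurp1 and Klk8 were those of Prl2c5, Lrrn4cl and Gprc5a. Gprc5a, an orphan receptor gene, rose from 13.7, 14.9 and 16.5 RPKM to 40.9, 40.4 and 45.8 RPKM in footprints (2.81-fold, limma adjusted p = 8.06e-05), and in RNA, where it was called too, 1.82-fold (limma adjusted p = 0.0645). Prl2c5 is a proliferin with near-identical copies, among which reads cannot be assigned safely, and its footprints rose from 0.216 to 0.449 RPKM with shRNA1 to 1.61 to 1.78 RPKM with shRNA2. The growth factor gene Igf2 was among the largest falls, with footprints at 31.6, 20.4 and 12.1 RPKM with shRNA1 and at 7.90, 7.80 and 5.49 RPKM with shRNA2 (2.82-fold lower, limma adjusted p = 0.0150). Igf2 RNA was low, at 1.97 to 3.85 RPKM with shRNA1 and 0.880 to 1.80 RPKM with shRNA2, and its 2.39-fold difference did not pass (limma adjusted p = 0.156).

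By function, footprint calls in 1 direction gathered in a few of the 49 gene lists, which were chosen with earlier results of these data known. Of all genes, 4.55% rose and 3.41% fell in footprints without shRNA1 replicate 1, and 12.6% and 13.2% with the replicate block. In RNA 3.91% rose and 2.73% fell without that lysate. List counts under these settings stand against these shares. Targets of p53, the stress-activated transcription factor, were lower with shRNA2: 0 of 26 measured members rose and 13 fell in footprints (against 4.98% of all genes), and 0 rose and 2 fell in RNA (Fas and Btg2, against 0.342% of all genes lower). The list median was −0.24 in footprints and −0.23 in RNA, against −0.01 and −0.02 over all genes, and 24 of the 26 members had a negative footprint difference. Without shRNA1 replicate 1 the footprint counts were 0 and 12, and with the replicate block 0 and 19. In RNA 8 members of the p53 list fell and 0 rose without that lysate. The antiproliferative gene Btg2 was at 8.94, 11.8 and 11.5 RPKM in footprints with shRNA1 and at 6.41, 6.82 and 7.74 RPKM with shRNA2 (1.53-fold, limma adjusted p = 0.0195). Plk2, a polo-like kinase, went from 52.5, 56.6 and 46.5 RPKM to 30.3, 36.8 and 31.3 RPKM (1.58-fold, limma adjusted p = 0.00415), and Sesn2, a sestrin that restrains mTORC1, from 30.8, 32.6 and 30.4 RPKM to 20.1, 21.3 and 18.9 RPKM (1.56-fold, limma adjusted p = 0.00127). Their RNA differences of −0.58 and −0.54 had the same direction and did not pass (limma adjusted p = 0.115 for both). Summed over the list, footprints were at 2754 to 3033 RPKM with shRNA1 and 2350 to 2558 RPKM with shRNA2. Set beside the 5 controls, which both comparisons share, the list median in footprints was 0.08 for shRNA1 and −0.21 for shRNA2.

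Genes of ribosome biogenesis were lower as well, with 0 of 43 rising and 13 falling in footprints (30.2%, against 4.98% of all genes) and no call in RNA. Their medians were −0.18 in both assays, and 40 of 43 footprint differences were negative. Nop56, a core protein of box C/D snoRNPs, had footprints at 275.9, 250.6 and 265.9 RPKM with shRNA1 and at 221.9, 208.8 and 215.2 RPKM with shRNA2 (1.23-fold lower, limma adjusted p = 0.0202). The rRNA methyltransferase gene Nop2 was 1.26-fold lower in footprints (limma adjusted p = 0.0104). Without shRNA1 replicate 1 the count was 0 and 9 in footprints and 0 and 4 in RNA, and with the block 0 and 27 in footprints (62.8% fell, against 13.2% of all genes). Cytosolic ribosomal protein genes had 0 rises and 6 falls among 78 in footprints (7.69%, a share near the 4.98% of all genes), with a list median of −0.12. They had 11 falls and 1 rise without shRNA1 replicate 1, and 35 falls and 2 rises with the block (44.9% fell, against 13.2% of all genes). In RNA the median of the ribosomal protein genes was −0.25, with no member called, and −0.17 without shRNA1 replicate 1, with 9 falls. Reads of ribosomal protein genes may be shared with their many processed pseudogenes. Histone genes had an RNA median of −0.29 that was 0.04 without shRNA1 replicate 1. In footprints they had 1 rise and 5 falls among 63 (7.94% fell, against 4.98% of all genes), and 0 rises and 1 fall without that lysate. With the block they had 2 rises and 38 falls (60.3% fell, against 13.2% of all genes). None of 35 proteasome subunits was called in either assay, nor was any of 50 genes with an Eif symbol. The latter are mostly translation initiation factors but include the eIF2 kinase genes Eif2ak1 to Eif2ak4 and the eIF4E-binding protein genes Eif4ebp1 and Eif4ebp2. With the block 1 of the Eif genes rose and 10 fell in footprints (2% and 20%, against 12.6% and 13.2% of all genes). Of the proteasome subunits 2 rose and 1 fell with the block (5.71% and 2.86%). Subunits of oxidative phosphorylation had 0 rises and 3 falls among 76 in footprints (3.95% fell, below the 4.98% of all genes). They had 0 rises and 1 fall without shRNA1 replicate 1, and 1 rise and 16 falls with the block (21.1% fell, against 13.2% of all genes).

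Footprint rises outnumbered falls in genes of mitosis and in those of glycolysis and the hypoxia response. Of 50 mitotic genes, 7 rose (14%, against 6.29% of all genes) and 0 fell in footprints, and 45 had a positive difference. The medians were 0.15 in footprints and 0.13 in RNA, where none was called. Anln, the scaffold protein anillin, rose from 168.4, 157.5 and 183.4 RPKM to 206.3, 210.0 and 233.5 RPKM in footprints (1.28-fold, limma adjusted p = 0.0244), and the mitotic kinase gene Plk1 from 146.4, 146.2 and 153.3 RPKM to 174.5, 186.8 and 181.0 RPKM (1.22-fold, limma adjusted p = 0.0193). Without shRNA1 replicate 1 only 4 of the 50 rose and 0 fell in footprints (against 4.55% of all genes higher), and 1 rose and 0 fell in RNA (against 3.91%). With the block 29 rose and 0 fell in footprints (58% higher, against 12.6%), so the excess of mitotic rises was large only in that setting. Beside the shared controls the median of the mitotic list in footprints was −0.25 for shRNA1 and −0.09 for shRNA2. With all 6 lysates, genes of replication and the G1/S transition went the other way, with 1 rise and 5 falls among 45 in footprints (11.1% fell, against 4.98% of all genes). With the block 4 rose and 14 fell (31.1% fell, against 13.2% of all genes). Their medians were −0.08 in footprints and −0.15 in RNA, but both were −0.03 without shRNA1 replicate 1. In RNA there was 1 fall, and 1 rise and 3 falls without that lysate. The RNA call with all 6 lysates was Fen1, the flap endonuclease of lagging-strand synthesis. It was 1.78-fold lower in RNA (limma adjusted p = 0.0428) and 1.94-fold lower in footprints (limma adjusted p = 0.000311). Of 28 genes of glycolysis and the hypoxia response, 7 rose (25%, against 6.29% of all genes) and 0 fell in footprints, with a list median of 0.17. The oxidoreductase gene Ero1l rose 1.45-fold, from 38.6, 34.1 and 35.2 RPKM to 51.4, 51.2 and 54.1 RPKM (limma adjusted p = 0.00211), and Aldoa, a glycolytic aldolase, 1.27-fold (limma adjusted p = 0.00744). The glycolysis and hypoxia list had no call in RNA. Without shRNA1 replicate 1 it had 4 rises in footprints and 6 in RNA, against 4.55% and 3.91% of all genes higher. With the block it had 13 rises and 2 falls in footprints (46.4% and 7.14%, against 12.6% and 13.2% of all genes).

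**Figure D4:**
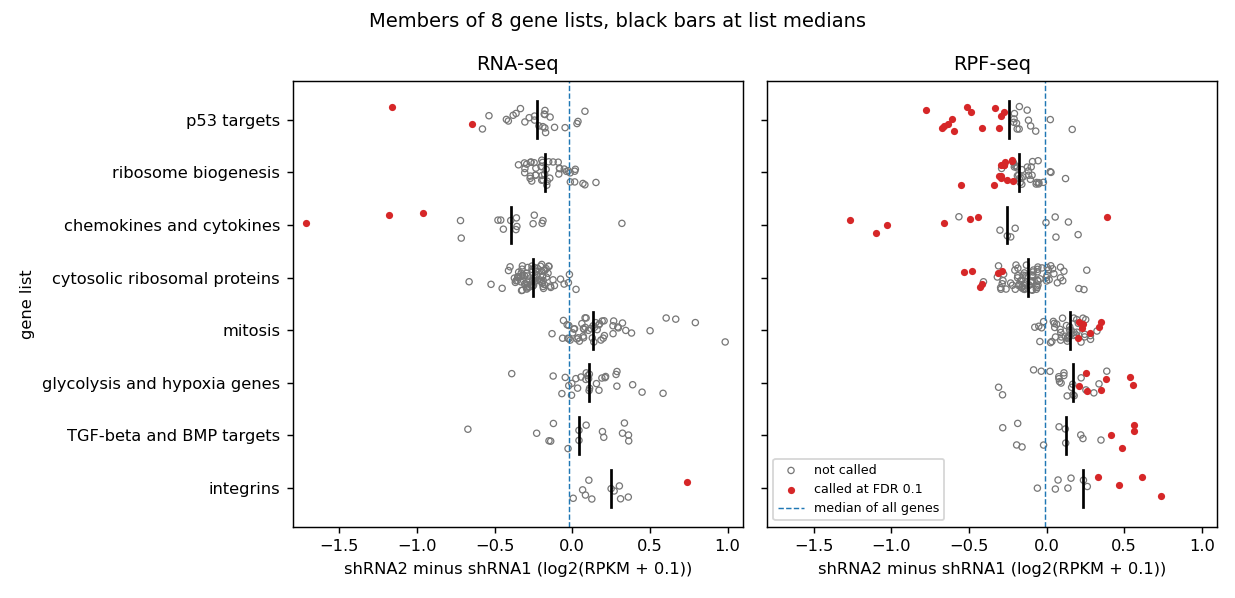
Difference between the Denr shRNAs (shRNA2 minus shRNA1, log2(RPKM + 0.1)) of each member of 8 gene lists in RNA-seq (left) and RPF-seq (right), with filled red points for genes called at an FDR of 0.1, black bars at list medians and a dashed line at the median of all genes. In RPF-seq the called p53 targets and ribosome biogenesis genes lie left of 0 and the called mitotic, glycolytic and integrin genes right of it, and in RNA-seq few members were called.

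Adhesion and signalling genes gave smaller groups. Their counts stand against 6.29% of all genes higher and 4.98% lower in footprints with all 6 lysates. Without shRNA1 replicate 1 these shares were 4.55% and 3.41%, and with the block 12.6% and 13.2%. In RNA they were 0.542% and 0.342%, and 3.91% and 2.73% without that lysate. Integrins had 4 rises and 0 falls among 11 in footprints (36.4%, against 6.29% of all genes higher) and 1 rise in RNA (against 0.542%), 2 without shRNA1 replicate 1, with medians of 0.24 and 0.25. The beta subunit gene Itgb5 was mirrored closely: its RNA was at 88.2, 71.8 and 67.1 RPKM with shRNA1 and at 125.4, 127.5 and 124.4 RPKM with shRNA2, and its footprints at 23.0, 24.0 and 23.0 RPKM and at 39.1, 41.1 and 36.7 RPKM, 1.67-fold higher in each (limma adjusted p = 0.0432 and 0.000503). Itgb1, Itgb3 and Itgb8 rose in footprints by 0.33, 0.46 and 0.62. Of 15 TGF-beta and BMP targets, Tgfbi and the inhibitors of differentiation Id1, Id2 and Id3 rose in footprints by 0.42, 0.57, 0.48 and 0.56 and none fell, with 26.7% of the list rising, and without shRNA1 replicate 1 it had 3 rises in footprints and, where there had been no call, 4 rises and 1 fall in RNA. With the block 7 rose and 1 fell in footprints. Among 28 matrix glycoproteins 6 rose and 3 fell in footprints (21.4% and 10.7%), but 6 rose and 0 fell without shRNA1 replicate 1 and 10 rose and 4 fell with the block. In RNA 1 matrix glycoprotein rose, against 5 rises and 2 falls without that lysate. Among 28 matrix enzymes 7 rose and 5 fell in footprints (25% and 17.9%), 4 and 5 without shRNA1 replicate 1, and 10 and 8 with the block (35.7% and 28.6%). In RNA 1 matrix enzyme rose and 1 fell, with 1 rise and 3 falls without that lysate. The proteases Adamts12 (RNA 0.91, footprints 0.83) and Adamts1 (RNA −0.71, footprints −0.79) were called in opposite directions in both assays. Solute carriers had 16 rises and 7 falls among 168 in footprints (9.52% and 4.17%), 13 and 2 without shRNA1 replicate 1, and 33 and 18 with the block. In RNA no solute carrier was called, against 8 rises and 5 falls without that lysate. Zfp zinc-finger genes had 3 rises and 13 falls among 304 in footprints (0.987% and 4.28%, against 6.29% and 4.98% of all genes), 3 and 4 without shRNA1 replicate 1, and 5 and 44 with the block. Their RNA had no call, and 3 rises and 8 falls without that lysate. The core clock list had 1 call among 21, a rise of Per3 footprints by 0.73 (4.76%, against 6.29% of all genes), and 2 rises and 4 falls with the block.

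Footprints on 5′ UTRs, where the ribosomes on upstream open reading frames lie, were compared in the 5445 genes whose 5′ UTR held 20 or more reads in 5 or more RPF-seq libraries. In limma's test, 12 genes (0.22%) were called, 3 higher and 9 lower with shRNA2, and 8 of the 12 were also called in CDS footprints. Denr was one of them, with 5′ UTR footprints at 13.5, 11.1 and 7.49 RPKM with shRNA1 and at 3.48, 4.25 and 3.91 RPKM with shRNA2. The count was 0 without shRNA1 replicate 2 or shRNA2 replicate 1, 3 without shRNA1 replicate 3, 6 without shRNA1 replicate 1 or shRNA2 replicate 3, and 62 without shRNA2 replicate 2. With the replicate block 309 genes were called, 62 higher and 247 lower. On the RNA of the 5′ UTR 0 genes (0%) passed, and 455 had an unadjusted p under 0.05. Relative 5′ UTR translation, the footprints on the 5′ UTR divided by those on the CDS, was called in 0 genes (0%), with 343 at an unadjusted p under 0.05, of which 78 were higher and 265 lower with shRNA2. The smallest p was that of Jagn1, whose 5′ UTR footprints were at 34.9, 43.2 and 36.8 RPKM with shRNA1 and at 19.6, 23.1 and 16.1 RPKM with shRNA2 while its CDS footprints differed by 0.07 (relative difference −1.04, limma adjusted p = 0.781). Ppia and Rps28, which have many processed pseudogenes, were alike, with relative differences of −1.12 and −1.27 that did not pass either.

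Over all 5445 genes the median relative 5′ UTR translation differed by −0.07 between the hairpins. The lysate medians were −0.10, 0.13 and 0.09 with shRNA1 and −0.08, 0.10 and −0.12 with shRNA2, on the log2 scale relative to each gene's mean over the lysates. They overlapped, and an exact two-sided permutation test gave p = 0.6, where 3 lysates against 3 cannot go below 0.1. The same median for RNA differed by 0.01 (exact permutation test, p = 1).

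**Figure D5:**
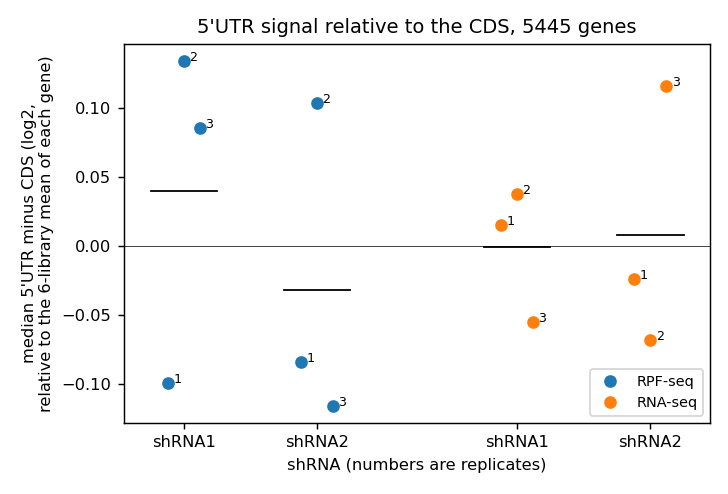
Median over 5445 genes of the 5′ UTR signal relative to the CDS (log2, relative to the mean of each gene over the 6 libraries) for each lysate, RPF-seq in blue and RNA-seq in orange, with bars at the group means. The shRNA1 and shRNA2 lysates overlap in both assays, and in RPF-seq replicate 1 lies below 0 and replicate 2 above it with both hairpins.

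The controls were set beside the hairpins only by which of them was nearer, not by how near it was. Of the 57 genes higher in RNA with shRNA2, the mean of the 5 controls was nearer to shRNA2 in 41 and nearer to shRNA1 in 16, and of the 36 lower genes it was nearer to shRNA1 in 20 and to shRNA2 in 16. For the lower genes the control hairpins differed, since the Gfp shRNA mean was nearer to shRNA1 in 27 of 36 and the scramble mean in 18 of 36. The mean of the controls lay between the hairpins in 42 of the 57 and 29 of the 36 genes, and outside them in the others, among them Denr. These counts were not tested.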

How the data were processed

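RPF-seq and RNA-seq libraries of 6 Denr knockdown and 5 control lysates were analysed. The authors deposited RPKM values of the CDS and 5′ UTR per gene and library. According to the study's methods, they trimmed and size-filtered reads, aligned them sequentially to rRNA, tRNA, cDNA and genome (Bowtie2 2.2.1 and TopHat2 2.0.11 and GRCm38.p2, per the labels), dropped sparsely covered genes, and scaled by upper quartile with edgeR, separately per assay. An RPKM depends on all other genes of its library, and a difference on log2(RPKM + 0.1) understates changes of low genes. The study's methods and the series' design text differ on the confluence of the cells.

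Whole reads were recovered from the RPKM steps (231352 of 231352 CDS and 228800 of 228829 5′ UTR values within 0.001) and served for depth, the 5′ UTR filter and voom. Symbols were found for 10505 of 10516 gene IDs. shRNA2 was compared with shRNA1 by limma 3.58.1 (lmFit, eBayes with trend) on the 6 knockdown libraries of an assay, adjusted by Benjamini-Hochberg over all genes at an FDR of 0.1. TE was the log2 difference of both libraries of a lysate. Medians over genes were compared by exact two-sided permutation tests. The fits were tested on simulated data. Same-numbered lysates deviated together in RPF-seq (correlations of deviations from the group means 0.29, 0.19 and 0.32) but not throughout in RNA-seq (0.43, 0.42 and −0.00094), and the pairing comes only from these data and numbers.

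Genes and lists were chosen with earlier results of these data known. By rule, the text names Denr, Mcts1 and Eif2d, the 10 largest RNA rises and falls and 5 of footprints among called genes with separated lysates and a mean of at least 1 RPKM, the smallest p-values of TE and relative 5′ UTR translation, the 3 smallest footprint-to-RNA ratios a direction, and up to 4 members of a list. One gene that this rule names is not reported here. List symbols were matched through GENCODE vM21 and RefSeq synonyms (GRCm38.p6), and sequences come from GENCODE vM21. Alternatives were 2 pseudocounts, centring, the replicate block, no trend, all 11 lysates, filters, voom and leaving out each lysate.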

Additional observations from a re-analysis of the deposited data

How the results depend on the processing

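The direction of all 93 RNA and 1185 footprint calls was the same under every alternative that tested them, and pseudocounts of 0.01 and 1 left the counts at 93 and 96 in RNA and 1185 in footprints. With the replicate block 289 genes were called in RNA, 2715 in footprints, 10 in 5′ UTR RNA and 309 in 5′ UTR footprints, and 241 RNA calls were mirrored. In RNA-seq and TE only 2 of the 3 numbers paired lysates by their deviations. With all 11 lysates in the fit 217 genes were called in RNA, of which 165 were mirrored, and 1 in 5′ UTR footprints. The 12 calls in 5′ UTR footprints became 4 with libraries centred on their medians, 5 without a trend and 1 with a minimum of 1 RPKM as coverage. Leaving out 1 lysate in turn gave 3 to 698 RNA calls, 650 to 1013 footprint calls, 3 to 369 mirrored genes, 0 to 62 calls in 5′ UTR footprints, 0 to 2 in 5′ UTR RNA and 0 to 1 in relative 5′ UTR translation. The RNA difference of Denr then ranged from −1.29 to −1.08. Differences near 0 changed sign in these fits, from −0.0754 to 0.107 for Mcts1 RNA, and in footprints from −0.13 to 0.13 for Pcgf3, −0.0464 to 0.0908 for Map2k6 and −0.38 to 0.14 for Gm19426. The cause was not tested. A fit without a trend and one with all 11 lysates do not apply to the median of relative 5′ UTR translation. Genes such as Ostn, S100b and Slc2a5 rest on few reads, which limits their precision.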
